A study of Mus musculus with 4 samples.

Results

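The genes described here are 8 interferon regulatory factor genes (Irf1, Irf2, Irf3, Irf4, Irf5, Irf7, Irf8 and Irf9) and Irf2bp2, the gene of a corepressor that binds IRF2. They were chosen by name, as 9 of 21887 protein-coding genes of the RefSeq table. Acetylation of histone H3 at lysine 27 (H3K27ac), a mark of active promoters and enhancers, had been mapped around them by fractionation-assisted native chromatin immunoprecipitation and sequencing. The material was CD45.2+ bone marrow of C57BL/6 mice, sorted for cKit, the stem cell factor receptor. One group has the genotype label cKit(+) and is titled control, and the other is labelled cKit(+) BRD9-NUTM1 and titled BN1, after the fusion of a bromodomain subunit of a BAF remodelling complex with a testis protein that recruits p300. The sources used here do not give the age of the mice, how the fusion was introduced or how many animals gave cells, and the extract protocol names BN1 cells for every sample, the control included. Each group had 1 ChIP library, seen through 1 peak list, so differences below lack a replicate check and none was tested. The prefix of the peak names reads BRNU in the list whose sample is titled control and BM in the list whose sample is titled BN1, which is the reverse of the titles if these letters stand for the fusion and for bone marrow, so groups are called by their labels throughout.

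Interferon regulatory factors share a winged-helix DNA-binding domain that reads GAAA repeats. IRF3, IRF5 and IRF7 are activated by kinases below pathogen sensors and switch on interferon genes, IRF9 is the DNA-binding subunit of the complex that answers type I interferon, and IRF1 and IRF2 act as activator and mostly as repressor on many of the same sites. IRF4 and IRF8 bind weakly alone and pair with the ETS factors PU.1 and SPIB. In marrow, IRF8 directs progenitors toward monocytes and dendritic cells and away from neutrophils, and IRF4 serves B cells, plasma cells, dendritic cells and macrophages.

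The list labelled control held 28343 peaks over 31.0 Mb and the list labelled BN1 19148 peaks over 19.1 Mb, and read depth is unknown. Acetylated length here means the bp that peaks cover in a gene's RefSeq span plus 10 kb on each side. It is given in bp and in bp per Mb of the list's own covered length, because the first total is 1.62 times the second. Subtracting control from BN1 gave a median of -457 bp, but of 10.2 bp per Mb, over the 13606 genes that had any peak. Kit, the gene of cKit, had no peak in its window in either list, and Ptprc, which encodes CD45, had 6634 bp labelled control and 2958 bp labelled BN1. Coordinates are those of mm10 (GRCm38), counted from 1.

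The sequences before the start sites of 4 of these genes are shown first, because 3 of them hold letters that factors of the pathway read and because Irf4 is the gene whose start was acetylated in 1 list alone. They are the 250 bases upstream of the first start site in the RefSeq promoter table (GRCm38.p6), 5′ to 3′ on the gene's strand, and all 9 genes had an entry. Capitals mark matches, on either strand, to 3 motifs. They are the interferon-stimulated response element (GAAA, any 2 bases, GAAA), the STAT site TTCNNNGAA (called GAS) and the ETS and IRF composite (GGAA, any 2 bases, GAAA).

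Irf1, chr11:53769764-53770013, plus strand: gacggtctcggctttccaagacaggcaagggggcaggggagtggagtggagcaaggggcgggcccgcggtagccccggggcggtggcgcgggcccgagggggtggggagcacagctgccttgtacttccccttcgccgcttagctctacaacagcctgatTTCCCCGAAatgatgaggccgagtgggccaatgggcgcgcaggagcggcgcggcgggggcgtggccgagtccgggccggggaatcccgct

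Irf2, chr8:46739495-46739744, plus strand: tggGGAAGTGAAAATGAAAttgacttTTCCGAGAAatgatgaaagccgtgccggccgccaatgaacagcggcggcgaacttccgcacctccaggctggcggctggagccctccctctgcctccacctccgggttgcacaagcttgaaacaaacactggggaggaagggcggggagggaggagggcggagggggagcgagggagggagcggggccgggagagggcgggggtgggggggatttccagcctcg

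Irf8, chr8:120736108-120736357, plus strand: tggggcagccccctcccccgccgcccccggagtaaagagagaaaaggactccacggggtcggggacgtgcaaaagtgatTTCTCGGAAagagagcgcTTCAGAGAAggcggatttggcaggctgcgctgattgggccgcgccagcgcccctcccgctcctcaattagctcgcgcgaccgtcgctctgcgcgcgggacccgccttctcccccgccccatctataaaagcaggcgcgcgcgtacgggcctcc

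Irf4, chr13:30748983-30749232, plus strand: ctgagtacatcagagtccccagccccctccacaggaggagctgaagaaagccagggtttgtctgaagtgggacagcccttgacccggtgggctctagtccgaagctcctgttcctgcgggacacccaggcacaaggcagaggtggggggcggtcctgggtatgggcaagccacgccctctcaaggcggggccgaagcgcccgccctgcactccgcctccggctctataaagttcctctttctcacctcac

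The Irf1 window held 1 GAS match, TTCCCCGAA. In the Irf2 window the composite GGAAGTGAAA and the response element GAAAATGAAA overlapped, sharing the middle GAAA, and a GAS match TTCCGAGAA followed. Irf8 had a pair of GAS matches, TTCTCGGAA and TTCAGAGAA. No motif was found in the windows of Irf3, Irf4, Irf5, Irf7, Irf9 and Irf2bp2, which says only that these letters are not there. Over 17492 promoters of protein-coding genes, each of 300 bases from 250 before to 50 after the start, GAS letters stood in 7.83% (1370), response element letters in 594 and composite letters in 2.63% (460). By base composition the Irf4 window was poorer in CpG than those of the other 3, with 11 CpG in 300 bases against 32 in Irf1, 19 in Irf2 and 38 in Irf8. Few CpG were not particular to Irf4. The windows not printed held 7 in Irf7 and 9 in Irf9, which had start peaks in both lists, and 18 in Irf3, 35 in Irf5 and 39 in Irf2bp2.

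At the gene level the family was acetylated in both libraries. Of the 9 genes, 8 had a peak within 1 kb of the start site in both lists, where 39.7% of 17492 genes with a start site did, and Irf4 had such a peak under the BN1 label only, as 2.88% of genes did. A start peak under the control label only (6.13% of genes) or in neither list (51.3%) occurred at none of the 9. A gene was called longer in 1 list where its acetylated length per Mb was at least 2 times that in the other and at least 500 bp. A gene with no peak in the other list counted as past the fold. By this rule no gene of the 9 was longer in the list labelled control, which 12.2% of all genes were, and 1 (Irf4) was longer in the list labelled BN1, which 10.5% were. These shares lie near the background, so the family did not stand apart from other genes by this count.

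In bp, the control list held the greater length at 7 of the 9 (43.9% of all genes) and the BN1 list at Irf4 and Irf8 (18.2%). Per Mb, the BN1 list held the greater length at 8 of 9 (36.2%) and the control list at Irf5 (26%). The direction of Irf1, Irf2, Irf3, Irf7, Irf9 and Irf2bp2 thus turned with the scale. The shares in brackets count all 21887 genes, of which 8281 had no peak and could be longer in neither list. Of the 13606 genes with a peak, 9619 were longer in bp labelled control and 3983 labelled BN1. Per Mb, 5690 of them were longer labelled control and 7916 labelled BN1. The median difference over the 9 genes was 47.2 bp per Mb but -301 bp, beside 10.2 bp per Mb and -457 bp over the 13606 genes with any peak. With flanks of 100 kb (300 kb for Irf2bp2) the control list was again ahead in bp at 7 genes (61.5% of all genes at 100 kb) and the BN1 list at 2 (19.5%), whereas per Mb the genes split into 4 (36.3%) and 5 (44.6%). Of the 9, none passed the 2-fold rule toward control there (12.9%) and Irf1 and Irf4 passed it toward BN1 (11.8%).

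Irf4 was again the BN1 call, with no control call, for the gene span without flanks, for flanks of 50 kb and for lengths in bp. The shares of all genes called under these settings were not computed, so these counts have no background beside them. Irf4 was likewise the BN1 call, with no control call, for a 3-fold rule (9.34% of all genes toward control and 5.85% toward BN1). So it was for peaks with a −log10 q of 5 or more (12% and 10.4%). It was also so where each list was cut to its 19148 best peaks by q-value (11.3% and 10.1%). This cut makes the number of peaks equal, not the covered length. A −log10 q of 10 or more added Irf5 toward control (11.7%) to Irf4 toward BN1 (10.2%). The top 10000 peaks per list gave Irf5 toward control (9.61%) and Irf4 and Irf8 toward BN1 (11.6%). A 1.5-fold rule gave none toward control (15.5%) and Irf4, Irf8, Irf9 and Irf2bp2 toward BN1 (20%).

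**Figure D1:**
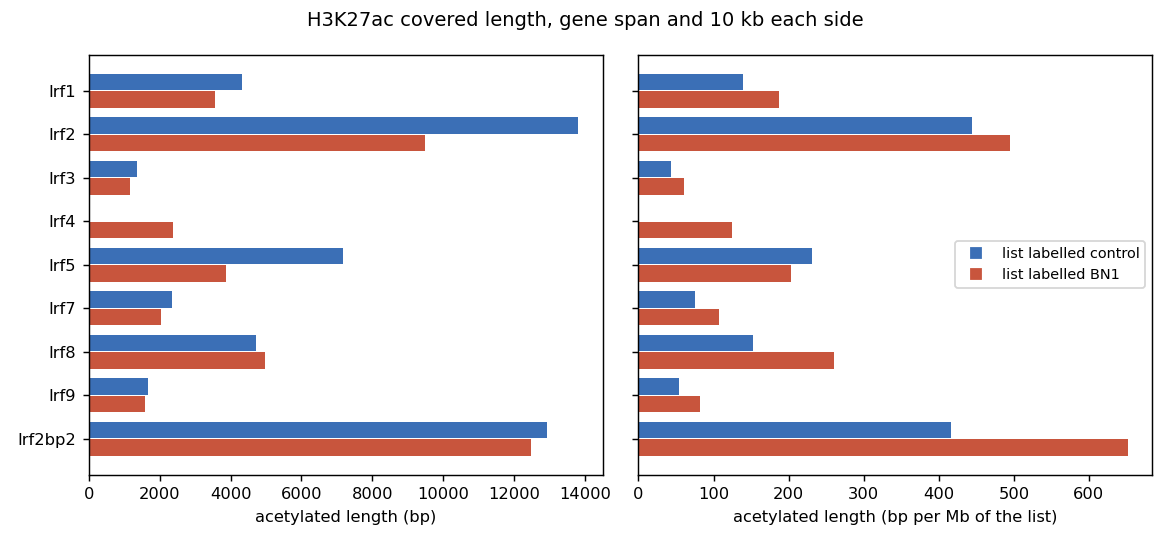
Acetylated length of each gene (span and 10 kb each side) in bp (left) and in bp per Mb of the list's covered length (right), with 1 bar per list and no error because each list is 1 library. Irf4 has no bar for the list labelled control, and Irf2 and Irf2bp2 have the longest bars on both scales.

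Irf2 and Irf2bp2 were the longest of the 9 in both lists, in opposite order. Irf2 (13805 bp) and Irf2bp2 (12936 bp) led in the list labelled control, followed by Irf5 (7186 bp), Irf8 (4720 bp), Irf1 (4330 bp), Irf7 (2352 bp), Irf9 (1669 bp), Irf3 (1356 bp) and Irf4 (no peak). Irf2bp2 (12470 bp) and Irf2 (9471 bp) led in the list labelled BN1, followed by Irf8 (4969 bp), Irf5 (3881 bp), Irf1 (3572 bp), Irf4 (2377 bp), Irf7 (2051 bp), Irf9 (1575 bp) and Irf3 (1163 bp). Among 21887 genes by length, Irf2bp2 ranked 248 in the former list and 45 in the latter, and Irf2 ranked 198 and 130. The Irf2 window is the widest of the 9, since the gene spans 107714 bp, whereas Irf2bp2 spans 5691 bp. With 1 library a group, which neighbours in these orders differ beyond their error cannot be said.

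**Figure D2:**
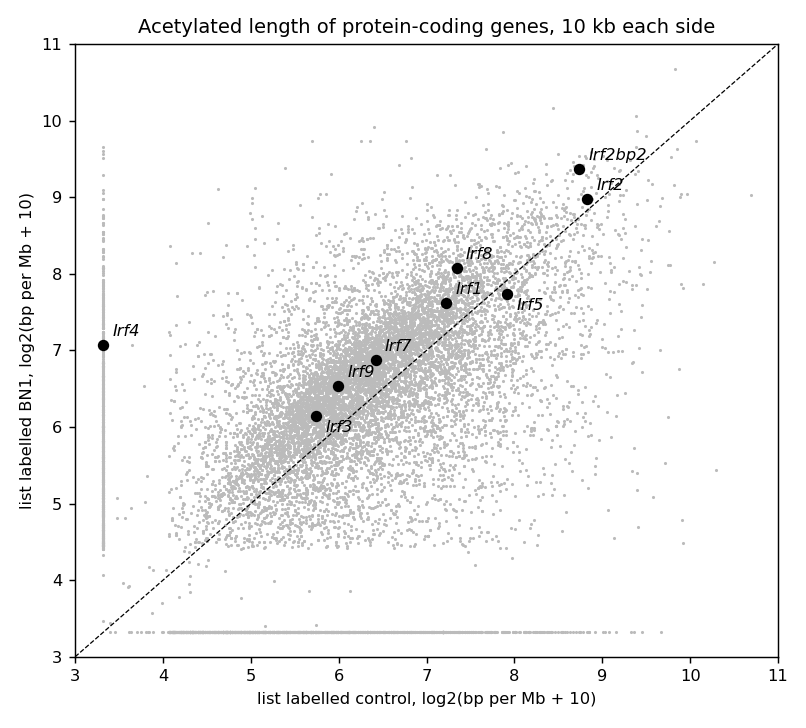
Acetylated length per Mb of every protein-coding gene with a region in either list (grey points) on log2(value + 10) axes, control on the horizontal and BN1 on the vertical axis, with the 9 genes in black and a dashed line of equality. Irf4 stands on the left edge, where the list labelled control has no peak, Irf5 lies just below the line, and the other 7 lie above it, Irf2 and Irf2bp2 among the longest genes of both lists.

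Irf1 (chr11:53770014-53778374) encodes an activator induced by interferon gamma. Its start lay under a peak of 1324 bp in the list labelled control and of 2028 bp in the list labelled BN1. The fold enrichment at the summit, which is the authors' value and comparable within a list only, was 5.71 (percentile 40.8 of the list) in the former and 19.1 (percentile 85.4) in the latter. A second region 6.1 kb upstream was called over 2778 bp and 1544 bp, respectively. Downstream, shared regions 25.3 kb from the start measured 752 bp and 2142 bp, and shared regions near 89 kb measured 550 bp and 902 bp. With 100 kb on each side Irf1 had 6602 bp labelled control and 8316 bp labelled BN1, or 213 and 435 bp per Mb, which is 2.04-fold and just past the rule. Of its 6 peaks in each list 5 were shared, so both libraries marked nearly the same places with different widths. The sixth were a 228 bp peak 1.1 kb inside the gene in the list labelled control and a 672 bp peak 75.9 kb downstream in the list labelled BN1.

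Irf2 (chr8:46739745-46847458) had a start peak among the stronger ones of both lists, 3668 bp wide with a fold enrichment of 36.0 (percentile 98.8) in the list labelled control and 3490 bp wide with 46.2 (percentile 97.6) in the list labelled BN1. All 3490 bp of the second lay within the first. The body of the gene differed more. Away from the start, the list labelled control had 10 peaks inside Irf2 over 9056 bp, of which 1 was shared, and the list labelled BN1 had 4 over 3795 bp, of which 3 were shared. That 1 shared control region, 4994 bp near the 3′ end, was matched by 3 shorter BN1 peaks of 668, 391 and 2484 bp. Beyond the gene, a 2772 bp region 128.8 kb from the start (fold enrichment 18.6, percentile 90.2) was called in the list labelled control alone. Another, 153.2 kb from the start, was 3206 bp wide there with a fold enrichment of 31.3 (percentile 98.0), and in the list labelled BN1 it was met by peaks of 607, 224 and 425 bp with fold enrichments from 3.01 to 4.73. Per Mb, Irf2 was longer in the list labelled BN1 with 10 kb flanks (495 against 445) but shorter within its span alone (323 against 372) and with 100 kb flanks (773 against 944).

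Irf3 (chr7:44997648-45002848), Irf7 (chr7:141263183-141266499) and Irf9 (chr14:55603985-55610030) are short genes in gene-dense regions, and each had few peaks of its own. Irf3, the ubiquitous factor phosphorylated by TBK1, had 1 peak in each list, of 1356 and 1163 bp, over its start. Bcl2l12, transcribed the other way, starts within 1 kb of the same peak, so the region belongs to either gene or both. Irf9 had 1 start peak in each list, 1669 bp (fold enrichment 13.8) labelled control and 1575 bp (13.6) labelled BN1, with 1375 bp in common and with the end of Rnf31 beside it. Irf7, the interferon-inducible amplifier of the type I response, had a start peak of 930 bp labelled control and of 598 bp labelled BN1, and a further BN1 peak of 257 bp inside the gene. Its second control region, 1422 bp at 3.1 kb upstream, lies at an end of Cdhr5 and was shared (1196 bp labelled BN1).

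With 100 kb flanks these 3 genes had 14813, 15651 and 17195 bp labelled control, against 8126, 9054 and 14265 bp labelled BN1, in the order Irf3, Irf7, Irf9. Per Mb the values were 477 against 425, 504 against 473, and 554 against 746, none past 2-fold. Most of this length lay at the starts of other genes. For Irf9, 13 of 17 control peaks and 11 of 13 BN1 peaks did so, among them the immunoproteasome activator genes Psme1 and Psme2. By fold enrichment the strongest control peak stood at Tm9sf1 (53.5) and the strongest BN1 peak at Dcaf11 (82.5).

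Irf5 (chr6:29526130-29541869), a factor of Toll-like receptor signalling in macrophages, dendritic cells and B cells, was the 1 gene longer under the control label on both scales, though with 100 kb flanks its 325 bp per Mb labelled control stood just below 332 labelled BN1. One peak of 4986 bp covered its start and first part in that list (fold enrichment 17.9, percentile 89.4), wider than 98.8% of the list's peaks. The list labelled BN1 had a start peak of 1142 bp (fold enrichment 10.7, percentile 69.5) and a separate peak of 1217 bp (3.37, percentile 6.83), both within the control region. A region 2.3 kb upstream of the start in the control list was 2200 bp wide, and its BN1 counterpart of 1522 bp lay wholly inside it. All BN1 bp within 10 kb (3881) were thus shared, and 54.0% of the control bp were. Restricted to peaks with a −log10 q of 10 or more, the lengths were 7186 and 1142 bp and passed the 2-fold rule toward control.

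Irf4 (chr13:30749233-30766981) had no peak within 10 kb in the list labelled control. The list labelled BN1 had a 1853 bp peak that began 61 bp after the start site, with its summit 1.3 kb inside the gene (fold enrichment 6.11, percentile 45.3), and a 524 bp peak 11.7 kb inside (5.17, percentile 34.5). None of the 250 upstream bases printed above lay under either peak. Upstream, BN1 peaks of 908, 548 and 236 bp stood 28.5, 27.5 and 26.6 kb before the start, the middle one with a fold enrichment of 10.3 (percentile 68.1), and a 262 bp peak stood 12.4 kb before it, all without a control counterpart. With 100 kb flanks Irf4 had 4198 bp labelled control and 9799 bp labelled BN1, or 135 and 512 bp per Mb. Only 2 regions were shared, 1 at the start of Dusp22 and 1 inside that gene, and the first alone made 2118 of the 4198 control bp. Irf4 passed the 2-fold rule toward BN1 under all 10 alternative settings tried for its length. Both BN1 peaks at Irf4 lay below the median fold enrichment of their list, and a region under the calling threshold is not shown to lack the mark.

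Irf8 (chr8:120736358-120756694) was acetylated in both lists to a like length in bp within 10 kb, 4720 labelled control and 4969 labelled BN1. Per Mb the lengths were 152 and 260, longer in the list labelled BN1. The places differed in part, with 2171 bp in common. After the start, a 1005 bp control peak met BN1 peaks of 395 and 343 bp, all beginning over 100 bp downstream of the first start site, so the upstream bases with the GAS matches lay outside them. A 371 bp BN1 peak covered most of the second start site's window (234 of 300 bases) and had no control counterpart. Inside the gene, the longest control region was 1890 bp at 7.2 kb and the longest BN1 region 2316 bp at 9.3 kb, which overlapped a 601 bp control peak. Among the top 10000 peaks per list no control region was left within 10 kb, and the 2316 bp BN1 region was.

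The distal regions around Irf8 had none in common, apart from the shared region at the ends of Emc8 and Cox4i1 67.9 kb upstream. Enhancers far from the promoter on both sides of Irf8 are known from dendritic cells and monocytes. Between genes the list labelled control had 7 peaks over 6703 bp, the list labelled BN1 4 peaks over 1793 bp, and none was shared. The control regions included 2662 bp at 50.8 kb upstream (chr8:120684792-120687453, fold enrichment 17.2, percentile 88.3), 1313 bp at 38.2 kb upstream and 890 bp at 16.8 kb upstream (8.84, percentile 64.5). The BN1 regions included 515 bp at 56.7 kb downstream of the start (chr8:120792927-120793441, fold enrichment 5.92, percentile 43.7) and 499 bp at 10.2 kb upstream. With 100 kb flanks the gene had 13337 and 7988 bp, or 430 and 418 bp per Mb, so the totals were alike per Mb but not in bp. Of these, 3741 bp were shared, which is 46.8% of the BN1 bp.

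**Figure D3:**
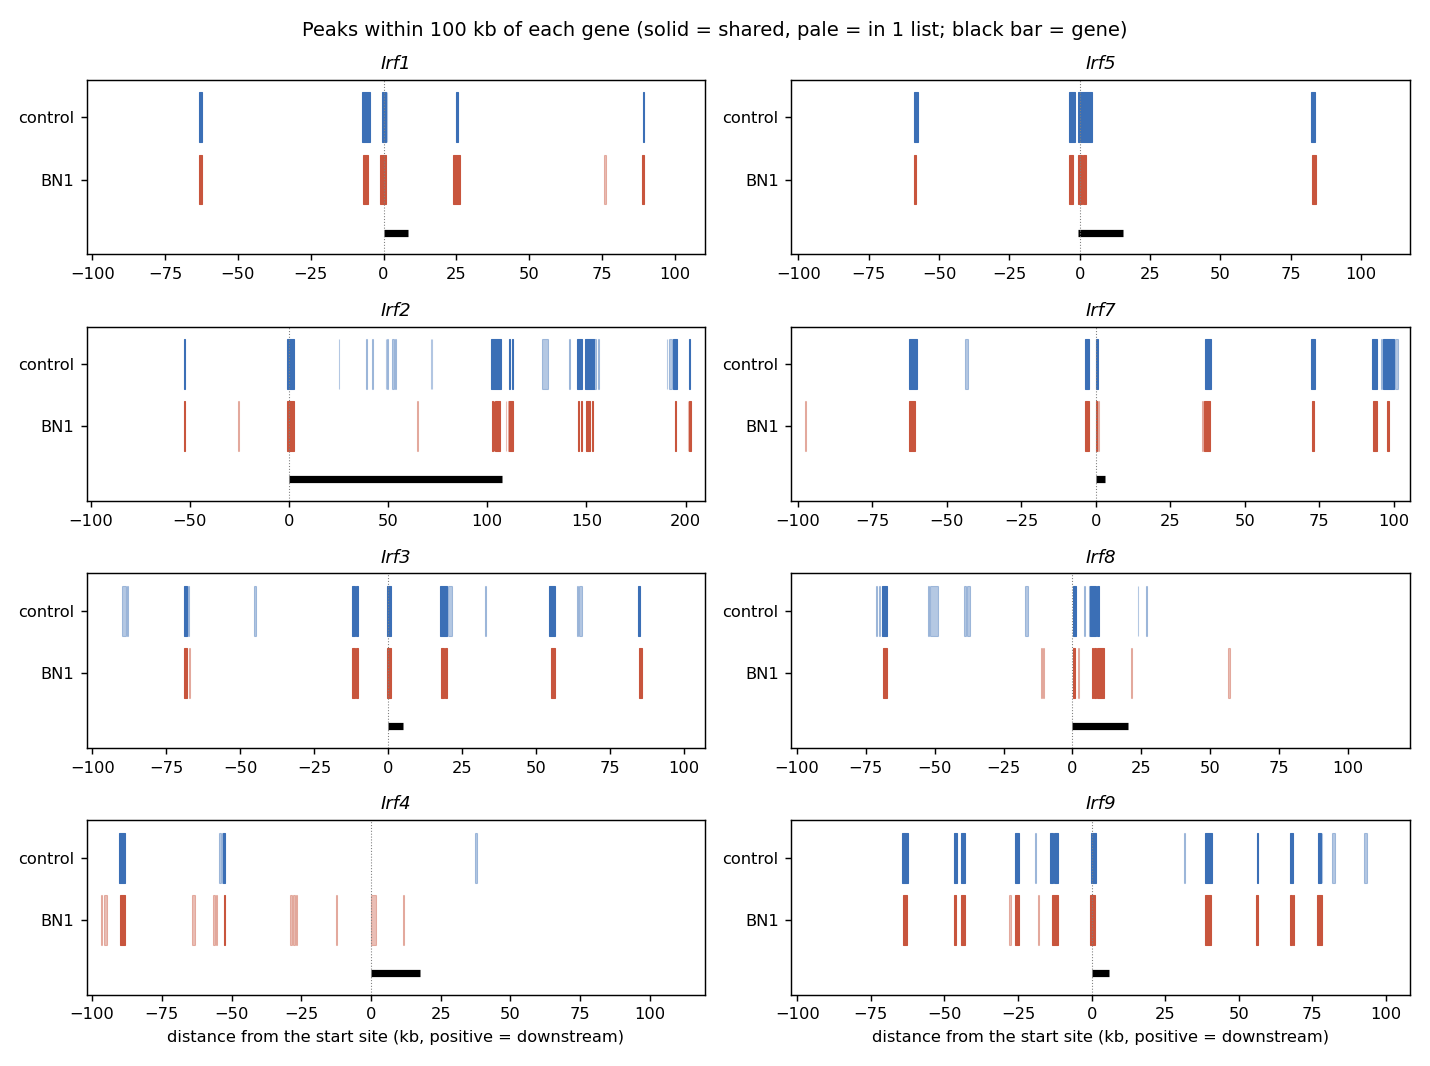
Peaks of each list within 100 kb of the 8 Irf genes, drawn to scale by distance in kb from the start site along the gene's strand, with solid boxes for shared peaks, pale boxes for peaks of 1 list and a black bar for the gene. The panels of Irf1, Irf5 and Irf9 are mostly solid, and those of Irf4 and Irf8 hold mostly pale boxes.

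Over all windows (100 kb, and 300 kb for Irf2bp2), 73 of 139 control peaks overlapped a BN1 peak by at least 1 bp, or 52.5% (95% exact Clopper-Pearson interval 43.9 to 61.0, counting error only), beside 41.2% of the whole list. Of 131 BN1 peaks 84 were shared, or 64.1% (55.3 to 72.3), beside 62.6%. Within 10 kb the shares were 60% (21 of 35; 42.1 to 76.1) and 75.8% (25 of 33; 57.7 to 88.9). Neighbouring peaks of 1 gene share their source and are not independent, so these intervals are too narrow.

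Sharing varied with place among these peaks. Shares by place over the whole lists were not computed, so whether other peaks vary alike is not known. At the start sites of the 9 genes 8 of 9 control peaks and 9 of 12 BN1 peaks were shared, and at the starts of other genes 23 of 30 and 23 of 28. Inside the 9 genes away from their starts 4 of 15 control peaks were shared against 7 of 9 BN1 peaks. Between genes it was 30 of 65 (46.2%) and 38 of 70 (54.3%). Shared peaks were the stronger ones of their lists here too, with median fold enrichments of 10.4 (control) and 6.50 (BN1), where unshared ones had 5.04 and 4.58.

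Irf2bp2 (chr8:126588296-126593986, minus strand) lay in one of the broad acetylated domains of both libraries. A single peak covered its start and most of the gene, 7756 bp wide in the list labelled control (fold enrichment 31.0, percentile 98.0) and 8760 bp wide in the list labelled BN1 (37.5, percentile 95.9). By width it ranked 44 of 28343 and 8 of 19148. Peaks stitched within 5 kb formed a domain of 12936 bp from 6 peaks and of 12470 bp from 5, with 10690 bp in common. All 6 control and all 5 BN1 peaks within 10 kb were shared. The predicted non-coding gene Gm31546, next to the start, is covered by the same peaks over all of its 1904 bp, so the mark may belong to both.

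A second domain lay 221.9 to 259.2 kb upstream of the Irf2bp2 start (chr8:126815865-126853226), and it was the longest stitched domain of the list labelled BN1, first of 35, with 20327 bp under 15 peaks. In the list labelled control the matching domain (chr8:126826282-126854010) had 18629 bp under 7 peaks and ranked 22 of 171. Both covered 15182 bp in common. No protein-coding gene of the table lies within it. The non-coding genes Gm31718 (chr8:126804707-126908370) and A630001O12Rik (chr8:126849020-126851837) overlap it. Over their whole spans they had 34824 and 2818 bp under control peaks and 24265 and 1960 bp under BN1 peaks. Gm31718 spans 103664 bp and runs past the domain on both sides, so its lengths include peaks outside the domain. The nearest protein-coding gene is Tomm20, 77.4 kb away on the far side, followed by Rbm34 at 93.9 kb, Pard3 at 210.2 kb and Irf2bp2 at 221.9 kb, and the lists hold nothing that links the domain to any of them. Its place as first depends on the stitching: it ranked 11 of 16 with stitching within 2 kb and 3 of 84 within 12 kb.

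Between and beyond these domains the lists parted in some stretches and overlapped in others. From 5 to 100 kb upstream of Irf2bp2 the list labelled control had 6 peaks over 9263 bp, 1 of them shared, and the list labelled BN1 had the 1 counterpart of 1617 bp. That shared region was 3282 bp wide in the list labelled control, with a fold enrichment of 30.8 (percentile 97.9). From 100 to 145 kb upstream the picture was the reverse, with 9 BN1 peaks over 7015 bp and no control peak. The widest was 2701 bp (fold enrichment 6.45, percentile 48.1). From 145 to 200 kb upstream the lists were more alike, with 3 control peaks over 5452 bp, 1 of them shared, and 2 BN1 peaks over 4230 bp, both shared. Control peaks of 2071, 2495 and 700 bp, with summits 210.1, 212.3 and 213.8 kb upstream, were shared with BN1 peaks of 511, 2392 and 501 bp. From 12 to 100 kb downstream the control list had 11 peaks over 13550 bp, led by 4982 bp at 56.7 kb with a fold enrichment of 22.8 (percentile 94.2), and the BN1 list 5 over 2817 bp. Past the far domain, from 262 kb upstream to the edge of the window, 5 control peaks covered 11576 bp and 2 BN1 peaks 1045 bp. These stretches were set after the peaks were seen.

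Over the whole 300 kb window Irf2bp2 had 77625 bp in 42 control peaks and 55059 bp in 44 BN1 peaks, which ranked 99 and 120 of 21887 genes by length in 300 kb windows. Per Mb that was 2502 and 2879, a ratio of 1.15 toward BN1, not past the 2-fold rule that 11.2% of genes passed toward control and 9.64% toward BN1 in windows of this size. The ratio turned to 0.709 in bp, to 0.912 for peaks with a −log10 q of 10 or more and to 0.847 for the top 10000 peaks per list. With 100 kb flanks Irf2bp2 had 35749 bp labelled control and 16904 bp labelled BN1, so that the control list was ahead per Mb too.

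**Figure D4:**
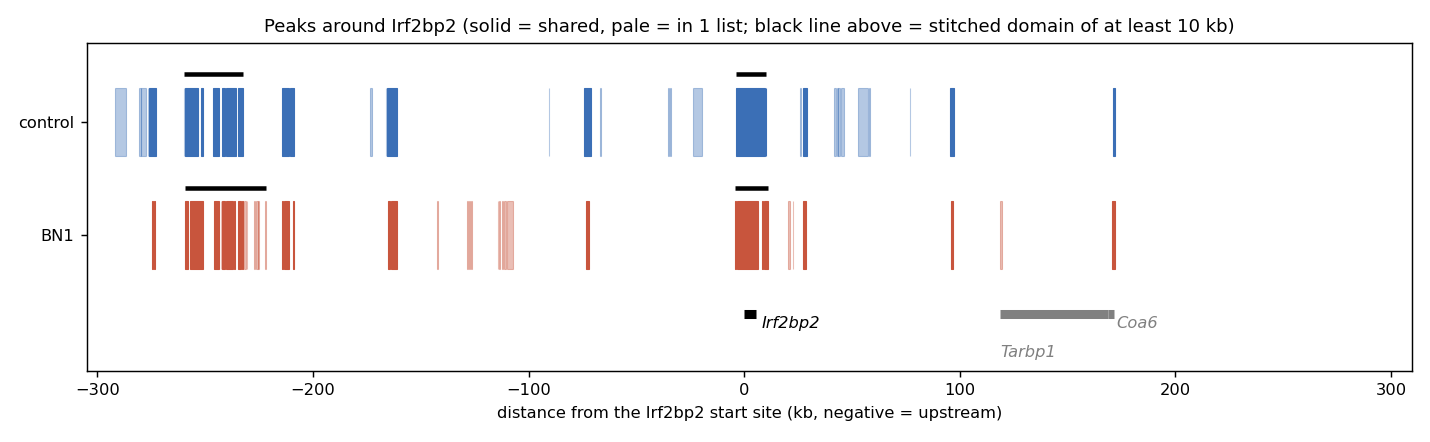
Peaks of each list within 300 kb of Irf2bp2 by distance in kb from its start site along the gene's strand (upstream at the left), solid where shared and pale where in 1 list, with black lines above for stitched domains of at least 10 kb covered. Both lists have a domain at the gene and one over 200 kb upstream, and pale BN1 boxes fill the stretch from 100 to 145 kb upstream where the control row is empty.

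The genes around the IRFs in the pathway were read from lists chosen with earlier results of these data known, by the 2-fold rule with 10 kb flanks (12.2% of all genes toward control, 10.5% toward BN1). Among 14 receptor, JAK and STAT genes 2 were longer toward control, 1 toward BN1 and 11 in neither, the median difference being 18.6 bp per Mb. Socs3, an inhibitor of cytokine receptor signalling, had 10271 bp labelled control and 830 bp labelled BN1, and Tyk2, a kinase of the type I receptor, had 2354 bp and none. Jak1 had 1572 and 3421 bp. Stat2, the gene of a partner of IRF9, had 2425 and 1197 bp and was not past the rule.

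Of 19 sensors and kinases upstream of IRFs, 5 were longer toward control and 3 toward BN1 (median -0.62 bp per Mb). Toward control stood Ikbke, an IRF3 and IRF7 kinase (8538 and 592 bp), the lipopolysaccharide receptor gene Tlr4 (4577 and 391 bp), Tlr7 (2726 bp and none), Tlr3 (1620 bp and none) and Mavs (1220 and 324 bp). Toward BN1 stood Tlr9, the receptor for unmethylated DNA (1444 and 2150 bp), and the RNA sensor genes Ddx58 (811 and 1256 bp) and Ifih1 (1054 and 1320 bp). Tbk1, the other IRF3 kinase, had 2892 and 1937 bp and was in neither group.

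Of 37 interferon-stimulated genes, 10 were longer toward BN1, 2 toward control and 25 in neither, 5 of them without a region (median 5.35 bp per Mb). The 10 were led by Ifitm3, which encodes an antiviral membrane protein (5658 and 10872 bp), and Samhd1, a nucleotide hydrolase (2326 and 4507 bp), and held the antigen-processing genes Psmb8 (2365 and 3546 bp) and Tap1 (3840 and 5297 bp). In bp none of these named genes was 2 times as long labelled BN1, so their calls rest on the per Mb scale. Isg20 (428 and 3195 bp), Cmpk2, Oasl1 and Xaf1, also among the 10, were past 2-fold in bp too. Toward control stood Trim30a (2192 and 460 bp) and Oas2 (552 bp and none). Ifit1, Ifit3, Rtp4, Cxcl10 and Ifi44 had no peak, Rsad2 had 405 bp labelled BN1 only, and Isg15 had 1189 and 1090 bp.

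Of 10 genes of DNA-binding partners 3 were longer toward BN1 and 1 toward control, with a median of 84.4 bp per Mb. Spib, an ETS partner of IRF4 and IRF8, had 695 and 9064 bp, Ikzf3 (Aiolos) had 214 and 6080 bp and Tcf3 had 3670 and 7672 bp. Nfatc2 had 800 and 223 bp. Spi1, the gene of PU.1, was long in both lists (9890 and 11921 bp), and Batf3, a partner in dendritic cells, had 444 bp labelled BN1 only.

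Markers of several cell types differed between the lists. Of 10 B lineage markers 9 were longer toward BN1 and 1 (Ms4a1) toward control, with 42647 bp summed against 6189 bp, and Cd79b, Pax5 and Ebf1 had no control peak. Vpreb1 and Igll1 share their peaks. Other genes that lie close together, in these lists and those above, may share peaks too, so the counts need not be of separate regions. Of 10 neutrophil markers 8 were longer toward BN1 and none toward control (41961 against 10146 bp), Ngp, S100a9, Ltf, Cxcr2 and Retnlg had no control peak, and Ly6g had none in either list. Of 10 erythroid markers 6 were longer there and none in the other (16511 against 7930 bp), with Gata1 and Alas2 at 0 in both. Monocyte and macrophage markers went the other way, with 7 of 10 longer toward control and none toward BN1 (51851 against 11187 bp), Mertk, Cx3cr1 and Adgre1 without a BN1 peak, and Ccr2 without one in either list. Dendritic cell markers were split, 2 each way of 10 (32667 bp labelled control, 18801 bp labelled BN1), and T and NK markers were 1 toward control and 3 toward BN1 (8189 and 9392 bp). The Irf4 regions labelled BN1 and the wider Irf5 and distal Irf8 regions labelled control stood beside these differences, whose part in them was not tested. In a mixed sample, fewer cells of a type and less mark per cell cannot be told apart.

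**Figure D5:**
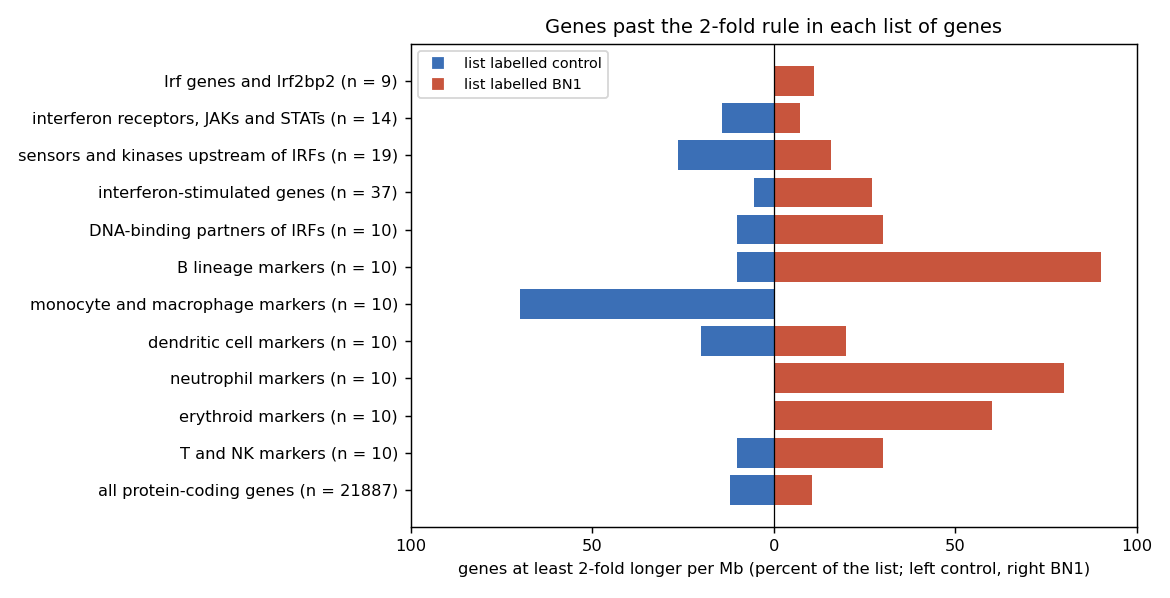
Share of each gene list that was at least 2-fold longer per Mb in the list labelled control (left of 0) or in the list labelled BN1 (right of 0), in percent of the n genes measured, with all protein-coding genes at the bottom. Among the IRF genes and their pathway lists the longest bar stands for 3 of 10 genes (the DNA-binding partners), while 90% of B lineage and 80% of neutrophil markers lie to the right and 70% of monocyte and macrophage markers to the left.

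By the pair of lengths per Mb (Euclidean distance on log2(value + 10), over 2 libraries only), the genes most like Irf2bp2, which of the 9 had the largest difference toward BN1 per Mb (235.2) but not in bp (-466, where Irf4 had it), were Ddx39b (12872 and 12586 bp), Tyrobp (13045 and 12061 bp) and Hcst (13157 and 12061 bp), the last pair being neighbours that share peaks. Those most like Irf5, the gene furthest toward control per Mb, were Ppp1r14b (7316 and 3845 bp), Lamc1 (7025 and 3894 bp) and Esrra (7025 and 3837 bp).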

How the data were processed

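Of 4 labelled samples, the 2 ChIP libraries were analysed; the 2 inputs were not analysed here. Per the submitters' processing notes, the build was mm10 (GRCm38) and the tools were MACS3 3.0.1, deepTools 3.5.1, Bowtie2 2.5.4 and Picard 3.2.0, in no stated order. The deposited lists give, per peak, a fold enrichment (linear ratio), the −log10 of the p-value and q-value, a score (unused), and a summit position. Threshold, input use and pooling: not given in the sources used here. Covered lengths were computed per RefSeq gene (GRCm38.p6), peaks within 5 kb were stitched, and domains needed 10 kb covered. Start sites came from the RefSeq promoter table (17492 protein-coding genes, first site). Functions were tested on made-up peaks. The genes, lists and alternatives were chosen with earlier results of these data known. The rule for named genes took every IRF gene, up to 2 called genes per list and direction by difference per Mb, and the 3 nearest in pattern; other genes were named after their values were seen. Some genes of the lists are not reported here. Intervals are exact binomial. Software was pandas 2.3.3, scipy 1.17.1, numpy 2.4.6, matplotlib 3.10.9 and Python 3.11.15.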

Additional observations from a re-analysis of the deposited data

How the results depend on the processing

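No paired analysis was possible because each group has 1 ChIP library, and no library could be left out. Irf4 was called toward BN1 under every alternative. Without a control peak within 10 kb, its fold could fail only with flanks of 50 or 100 kb. The count called toward control was 0, but 1 (Irf5) for a −log10 q of 10 or more and 1 with the top 10000 peaks per list. The count toward BN1 was 1, but 2 with the top 10000 peaks (Irf4 and Irf8), 2 with 100 kb flanks (Irf1 and Irf4) and 4 at 1.5-fold (Irf4, Irf8, Irf9 and Irf2bp2; 20% of all genes at that fold). Of 90 lengths of single genes under alternatives, 66 kept their direction and call, 7 kept their direction and became called, and 17 of uncalled genes changed sign. Sharing of control peaks was 52.5%, 67% with lists of equal peak number and 42.4% where the overlap must reach 0.5 of the peak. That of BN1 peaks was 64.1%, and 75.9% for a −log10 q of 10 or more. The Irf2bp2 300 kb ratio was 1.15, but 0.912 for a −log10 q of 10 or more, 0.847 with the top 10000 peaks and 0.709 in bp. The far domain upstream of Irf2bp2 measured 18629 bp (rank 22) labelled control and 20327 bp (rank 1) labelled BN1. Labelled control it ranked 11 for a −log10 q of 5 or more and 63 with stitching within 12 kb. It measured 11148 bp for a −log10 q of 10 or more (rank 69), with lists of equal peak number (rank 87) and with stitching within 2 kb (rank 61). With the top 10000 peaks no control domain reached 10 kb there. Labelled BN1 it measured 11896 bp for a −log10 q of 10 or more (rank 9) and with the top 10000 peaks (rank 8), 10969 bp with stitching within 2 kb (rank 11), and ranked 3 with stitching within 12 kb. Depth is unknown and limits which weak regions, such as those at Irf4, could be called.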

Other observations

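The corepressor genes related to Irf2bp2 lay toward control per Mb. Irf2bpl, the paralogue of Irf2bp2, had 11719 bp within 10 kb under the control label and 4765 bp under the BN1 label, a difference (BN1 minus control) of -128 bp per Mb. Irf2bp1 had 3912 and 1915 bp, a difference of -25.9 bp per Mb. Neither passed the 2-fold rule, and whether Irf2bp2 differs from Irf2bpl could not be tested with 1 library a group.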
